A study of Mus musculus with 1248 samples.

Results

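Day 16 bone tumour cells of 4T1, a mammary carcinoma line of the mouse, which had grown in bone for 16 days were set beside cells of the same line taken from a mammary fat pad tumour at day 22. The cells were chosen from their own counts. A cell had at least 1000 genes detected, at least 50000 gene counts and at most 25% of counts from mitochondrially encoded genes. Its level of Krt8 and Krt18, the keratin pair of simple epithelia, had to exceed the summed level of 10 genes of blood cells, and that blood sum had to lie below 300 CPM, counts per 1000000 gene counts. The rule kept 64 of 192 deposited wells of day 16 bone and 84 of 96 deposited wells of the fat pad, 148 of the 1248 wells of the whole series. Another 120 wells of day 16 bone and 10 of the fat pad had more blood-gene than keratin counts and are called host-like wells. A further 6 wells of day 16 bone and 1 of the fat pad held both kinds of transcript and were left out.

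4T1 is a metastatic line of BALB/c origin, and the hosts were female BALB/c mice whose age the labels do not give. Cells carrying firefly luciferase and mCherry were injected into the heart, recovered from hindlimb bones at day 4, day 10 or day 16, and sorted one by one on mCherry. Cells of the fat pad tumour, which carry the same reporters, and cultured 4T1 cells were handled by the same full-length, oligo-dT primed protocol, and the related subline 4T1.2 was not used here. No label names the animal, culture or plate behind a cell, so each group is 1 sample, cells are not replicates, and no test between groups was possible. The growth site, the route of injection and the day of recovery differ together between the groups and cannot be told apart.

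Bone is remodelled by osteoclasts, which dissolve mineral, and osteoblasts, which lay down matrix. Tumour cells in bone are known to make factors such as parathyroid hormone-related protein that drive osteoclasts, and resorbed matrix releases transforming growth factor beta. Epithelial identity rests on keratins and on junctions of E-cadherin, claudins and desmosomal proteins, and interferons act on all nucleated cells through STAT transcription factors and the promoter element named the interferon-stimulated response element.

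The wells behind the comparison had these properties. The tumour cells held a median of 3032144 counts in day 16 bone and 2988316 in the fat pad, over 10253.5 and 9826.5 detected genes, and no 2 cells had the same counts. One day 16 cell, number 188, held 34104356 counts and made up 15.9% of the day 16 sum, while no fat pad cell exceeded 1.7% of its sum. The labels number the day 16 wells 1 to 192, and the tumour cells numbered 1 to 96 (41 cells, the first run) and 97 to 192 (23 cells, the second run) stood apart. The blood-gene sum had a median of 52.6 CPM in the first run and 99.9 CPM in the second, against 7.33 CPM in the fat pad. The lowest day 16 cell had 39.8 CPM, above the third quartile of the fat pad cells. Every day 16 tumour well thus held a low level of blood-gene counts, whose source was not tested. Krt8 and Krt18 summed to a median of 7915 CPM in the first run, 4748 CPM in the second and 4541 CPM in the fat pad. A pair of adjacent chromosome 17 rows that hold ribosomal RNA, CT010467.1 and Gm26917, took a median of 4.88% of counts in day 16 cells and 11.3% in fat pad cells. What the numbering stands for is not given, so values within each run are printed beside those that depend on it. The part of the cell-number runs, of blood-gene counts and of the ribosomal RNA rows in the results was not tested.

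The label of the cells was set beside their markers. The keratin and blood sums are those the rule used, so their gaps describe its edge and cannot check the label. At the edge of the rule, the day 16 tumour cell with the highest blood sum had 277.3 CPM and the mixed well nearest to it 403.4 CPM. In the fat pad these values were 285.3 and 573.4 CPM. The lowest keratin sum of a day 16 tumour cell was 487.5 CPM, and the highest of a host-like well was 220.7 CPM. In the fat pad they were 865.4 and 125.3 CPM. The mCherry reporter, which the rule did not use, had a median of 640.1 CPM in day 16 tumour cells and 593.1 CPM in fat pad tumour cells. Host-like wells had mCherry medians of 179.9 CPM in day 16 bone and 13.2 CPM in the fat pad. In day 16 bone they reached 10877 CPM against 3764 CPM in tumour cells, so mCherry did not set tumour cells apart there. The reporter row luciGFP had medians of 77.0 CPM in day 16 and 32.6 CPM in fat pad tumour cells. In host-like wells its medians were 1.55 and 1.48 CPM, with overlapping ranges. Of 14 marker lists of other cell types, neutrophil and macrophage genes carried the day 16 blood signal: the neutrophil genes S100a8, S100a9, Ngp, Camp and Retnlg and the macrophage genes Lyz2 and C1qa had higher sums in day 16 cells, with medians of 118, 71.0, 47.0, 14.9, 17.0, 80.2 and 19.3 CPM. In host-like wells of day 16 bone their medians were 488, 263, 200.5, 44.2, 41.2, 11088 and 31.3 CPM. The summed level of the 13 neutrophil genes ran from 239.8 to 5946 CPM in day 16 tumour cells and from 22.3 to 12486 CPM in fat pad tumour cells. The median was 1079 CPM in day 16 tumour cells and 1189 CPM in fat pad tumour cells, and Lcn2 alone had a median of 1180.1 CPM in fat pad tumour cells and 155 CPM in day 16 tumour cells. The 13 macrophage genes summed to a median of 332 CPM in day 16 tumour cells and 124 CPM in fat pad tumour cells, against 31650.4 and 24693 CPM in host-like wells. Of 9 neutrophil genes compared, 7 were at least 2-fold higher in day 16 cells and 2 lower, and of 6 macrophage genes 5 were higher and 1 lower. When the mean profile of each group's host-like wells was subtracted at the share that the blood genes gave, 0.950% of counts in day 16 bone and 0.283% in the fat pad, the log2 ratio became -0.26 for S100a8 and -0.15 for S100a9, while Ngp stayed at 1.16 and Lyz2 at 1.37. No gene of the B cell, T and NK cell, dendritic, mast cell, platelet, endothelial or smooth muscle lists reached 10 CPM in either tumour group. Of the osteoblast list 3 genes were compared, with Dmp1 higher and Ibsp lower, while Bglap, Sp7 and Alpl had a median of 0 in both groups. Of the fibroblast list 1 gene was compared, Pdgfra, and was higher. None of the 2 osteoclast genes, 1 adipocyte gene and 1 erythroid gene compared was called.

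Counts were summed over the tumour cells of a group, scaled to CPM, and compared as the log2 ratio of day 16 bone over fat pad with 5 CPM added to each. A gene with at least 10 CPM in either group was compared, and one at least 2-fold apart was called higher or lower. Of 9151 genes compared, 631 were higher in day 16 bone (6.90%) and 430 lower (4.70%), and over all genes the log2 ratio had a median of 0.05. Medians of single cells gave fewer calls: 288 of the higher and 161 of the lower genes also had medians of single cells 2-fold apart in the same direction. Without the deepest cell 495 genes were higher and 380 lower, and 398 of the 631 and 330 of the 430 were among them.

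Among the 14 genes furthest higher in day 16 bone whose medians over cells also lay 2-fold apart, the blood-cell genes S100a8, S100a9, Ngp and Lyz2, whose levels in host-like wells are given above, stood among the first 6 by log2 ratio. Nr4a2, an orphan nuclear receptor at chr2:57106830-57124003 (mm10), had lowest, median and highest values of 5.96, 845 and 3095 CPM over day 16 cells and of 0, 0.803 and 451 CPM over fat pad cells. The ranges overlapped, but all 64 day 16 cells lay above the fat pad median and no fat pad cell lay above the day 16 median. Its sum was 952 CPM in day 16 bone (948.2 to 956.5) and 28.2 CPM in the fat pad (27.50 to 28.87), where brackets hold exact Poisson 95% intervals that cover counting error only, and the log2 ratio was 4.85 (4.71 in the first run and 4.96 in the second). Its relative Nr4a1, at chr15:101254269-101274795, ran over 8.72, 1097 and 4882 CPM in day 16 cells and 0, 35.3 and 3694 CPM in fat pad cells. The log2 ratio of Nr4a1 was 2.83, and the ranges overlapped. Id2, an inhibitor of basic helix-loop-helix factors, summed to 243 CPM in day 16 bone and 19.6 CPM in the fat pad. Dusp2, a phosphatase of ERK, summed to 405 CPM in day 16 bone and 37.6 CPM in the fat pad and was 2-fold higher in the first run alone (4.01 against 0.55 in the second). Gadd45g, a growth arrest gene, and Tiparp, an aryl hydrocarbon receptor target, had log2 ratios of 3.11 and 2.94. Aqp1, a water channel, Celf2, a splicing regulator, and Plscr4, a scramblase-family protein, followed with 3.14, 2.99 and 3.55, the last of which was 2.74 without the deepest cell. The remaining member of the 14 was Mgp, described with the mineral matrix genes.

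The 14 genes furthest lower were chosen in the same way. Tmprss6, a membrane serine protease known from the liver as a regulator of hepcidin, summed to 21.0 CPM in day 16 bone and 263 CPM in the fat pad with a log2 ratio of -3.36. Its median was 0.282 CPM over day 16 bone cells and 174 CPM over fat pad cells, and 21.0% of day 16 cells against 75.9% of fat pad cells held 10 CPM or more once each cell was thinned to 500000 counts, which left out 2 day 16 cells and 1 fat pad cell (20.3% and 76.2% unthinned). Other shares at this level are from the same thinned cells. Host-like wells, which should lack the gene, had medians of 0 CPM in day 16 bone and 3.77 CPM in the fat pad. Anxa8, an annexin of basal epithelia, summed to 20.8 CPM in day 16 bone and 228 CPM in the fat pad (-3.17). The complement component C3 (-2.72) and the chemokine Cxcl1 (-2.42) were lower in both runs. Usp18, which removes the ubiquitin-like ISG15 protein, had medians of 0.845 CPM over day 16 bone cells and 126 CPM over fat pad cells and a log2 ratio of -2.46. The others were Gbp10 (-2.27), Elf3 (-2.15), Mgst1 (-2.12), Dennd2d (-2.11), Crispld2 (-2.10), Ptpn13 (-2.10), S100a14 (-2.08), Sfrp1 (-2.07) and Bcl6 (-2.03), each lower in both runs.

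**Figure D1:**
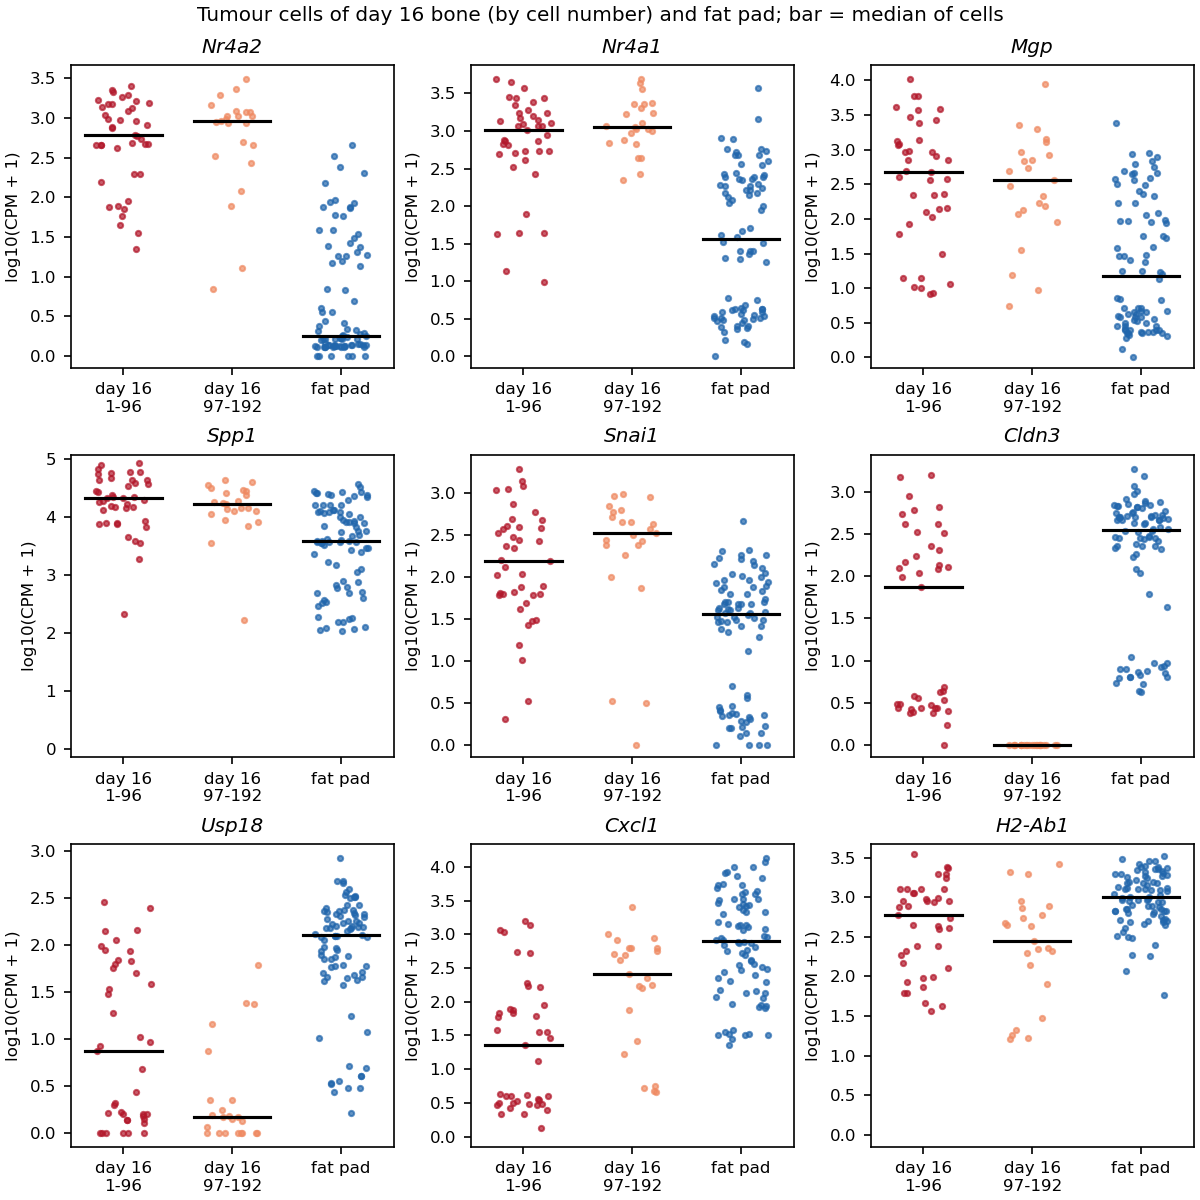
Level of 9 genes in every tumour cell, as log10(CPM + 1), for day 16 bone cells of the first run (41), the second run (23) and fat pad cells (84), with the median of the cells as a bar. Nr4a2, Nr4a1, Mgp, Spp1 and Snai1 sit higher in both day 16 runs, Usp18 and Cxcl1 lower in both, and Cldn3 has separate high and low cells in the first run and is at 0 in the second.

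Immediate early genes had more members called higher in day 16 bone than any other of the 38 lists, a count that depends on list size. Over all genes compared 6.90% were called higher. The mineral matrix and transforming growth factor beta lists, described below, had higher medians (1.61 and 1.06). Of 34 compared, 16 were higher, none lower and 33 had a positive log2 ratio, with a median of 0.92 against 0.05 for all genes (1.15 in the first run, 0.66 in the second). These genes are switched on within minutes of a stimulus without new protein synthesis, and many encode AP-1, EGR, KLF and NR4A transcription factors. Summed over the 16 genes called higher, and so chosen for their height, cells had a lowest, median and highest of 751.2, 15651 and 58057 CPM in day 16 bone and 89.9, 4857 and 16784 CPM in the fat pad. Day 16 cells above the fat pad median numbered 62 of 64, and 1 of 84 fat pad cells lay above the day 16 median.

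Within the list the increase was uneven. The AP-1 partner Fosl1 summed to 756 CPM in day 16 bone and 112 CPM in the fat pad (2.71), Junb to 7451 CPM in day 16 bone and 2599.6 CPM in the fat pad (1.52), and Fosb to 1628 CPM in day 16 bone and 652 CPM in the fat pad (1.31). Fos itself summed to 12227 CPM in day 16 bone and 6639 CPM in the fat pad and was not 2-fold apart (0.88), and Egr1 was nearly equal at 981 CPM in day 16 bone and 966 CPM in the fat pad. Its relatives Egr2 and Egr3 were higher (1.41 and 1.30), with Egr3 at 0.78 in the second run. The Krüppel-like factors Klf2 and Klf4, known to respond to flow and to differentiation cues, had medians of 504 CPM over day 16 bone cells and 80.2 CPM over fat pad cells for Klf2 and 248 CPM over day 16 bone cells and 24.7 CPM over fat pad cells for Klf4. Both had a log2 ratio of 2.14. Nr4a3 was higher at a low level, 14.0 CPM in day 16 bone and 0.595 CPM in the fat pad. Also among the 16 were Socs3, which restrains gp130 receptors (1.32), Ppp1r15a, a phosphatase subunit of the stress response (1.40), Gadd45b (1.64) and Ier5 (1.56). Cyr61, a matricellular protein and target of YAP, summed to 4377 CPM in day 16 bone and 1116 CPM in the fat pad (1.97), and to 1.12 on the log2 scale without the deepest cell.

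Genes of the mineral matrix are described next. Of 15 listed genes 6 were compared, 4 were higher and 2 lower, with a median log2 ratio of 1.61 (1.7 in the first run, 1.90 in the second, and -0.01 with no minimum CPM, where genes with few counts enter). The other 9 were below 10 CPM in both groups, among them Bglap, the osteocalcin gene, with no count in either. Spp1, at chr5:104435118-104441050, encodes osteopontin, a secreted acidic protein that binds hydroxyapatite and integrins. Its lowest, median and highest values were 165, 18412 and 85688 CPM over day 16 cells and 108, 3938 and 36827 CPM over fat pad cells. Its sum of 23567 CPM in day 16 bone (23546 to 23588) and 8876 CPM in the fat pad (8864 to 8888) gave a log2 ratio of 1.41, with 1.73 in the first run and 0.79 in the second, which is short of 2-fold. Summed Spp1 was 568 CPM in cultured cells, 2372 CPM at day 4 in bone, 8458 CPM at day 10 and 23567 CPM at day 16.

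Mgp, at chr6:136872435-136875823, encodes matrix Gla protein, an inhibitor of calcification. Its values were 4.48, 443 and 10424 CPM over day 16 cells and 0, 13.8 and 2405 CPM over fat pad cells, so the groups overlapped widely while their medians were far apart. It summed to 1224 CPM in day 16 bone and 167 CPM in the fat pad (2.83) and was at 2.20 CPM in culture. Sparc, the collagen- and calcium-binding osteonectin, had medians of 669.9 CPM over day 16 bone cells and 58.3 CPM over fat pad cells and a log2 ratio of 2.28. Dmp1, dentin matrix protein 1, is a protein of osteocytes, and it summed to 410.4 CPM in day 16 bone and 113 CPM in the fat pad (1.81), with no count in culture. Both Sparc and Dmp1 were higher in both runs. Ibsp, bone sialoprotein, went the other way at 10.4 CPM in day 16 bone and 97.0 CPM in the fat pad (-2.72), and so did the matrix protein Tnc at 24.3 CPM in day 16 bone and 64.9 CPM in the fat pad (-1.26). For both, most cells of either group lay near 0 and the sum came from a minority: 9.68% of day 16 cells and 30.1% of fat pad cells held 10 CPM or more of Ibsp (9.38% and 28.6% unthinned).

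Genes of the transforming growth factor beta and bone morphogenetic protein response, a list that also holds ligands and latency proteins, had a raised median in day 16 bone. Of 19 compared, 10 were higher and none lower, with a median log2 ratio of 1.06 (1.10 and 0.79 in the 2 runs). The increase was not shared by all members. Thbs1 (-0.59), Inhba (-0.38), Tgfbi (-0.26), Ski (-0.22) and Ctgf (-0.07) had negative log2 ratios. Targets shared by both pathways were the Id genes: Id1 summed to 364 CPM in day 16 bone and 79.4 CPM in the fat pad (2.13) and Id3 to 1453 CPM in day 16 bone and 514 CPM in the fat pad (1.49), and each was at 0.97 in the second run, just under 2-fold. The inhibitory Smads, which feed back on the receptors, were higher, Smad7 at 139 CPM in day 16 bone and 44.7 CPM in the fat pad (1.54, 0.92 in the second run) and Smad6 at 15.0 CPM in day 16 bone and 2.10 CPM in the fat pad (1.49). By the medians over cells Smad6 was 0.08. Klf10, a repressor named for its induction by transforming growth factor beta, had medians of 527 CPM over day 16 bone cells and 148 CPM over fat pad cells. Skil, which represses Smad complexes, was 1.19, with 0.96 for the second run without the deepest cell. Ltbp2, a matrix protein related to the latent growth factor binding proteins, was 1.2, and was 0.87 without the deepest cell.

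Mesenchymal genes were modestly higher. Of 16 compared, 4 were higher and none lower, and 14 had a positive log2 ratio (median 0.71, 0.41 in the first run and 0.87 in the second). Snai1, at chr2:167538195-167542814, encodes a repressor of E-cadherin. It had values of 0, 251 and 1930.5 CPM over day 16 cells and 0, 35.2 and 464 CPM over fat pad cells. Its log2 ratio of 2.40 held in both runs (2.53 and 2.16). The fibronectin receptor subunit Itga5 (1.66), the growth factor receptor Pdgfra (1.29) and the intermediate filament Vim (1.01) were the others. Itga5 was 0.98 in the second run without the deepest cell, and Vim was 0.92 in the first run.

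Epithelial junction genes stood lower in day 16 bone, and the runs of cell numbers were far apart. Of 30 compared, 11 were lower and 1 higher, with a median log2 ratio of -0.60, which was -0.21 in the first run and -1.86 in the second. Cdh1, E-cadherin, at chr8:106603351-106670246, had values of 0, 11.4 and 429 CPM over day 16 cells and 3.30, 177 and 646 CPM over fat pad cells. It summed to 64.1 CPM in day 16 bone and 217 CPM in the fat pad (-1.69), with -0.94 in the first run and -4.47 in the second. Cldn3, a tight junction claudin at chr5:134986214-134987472, had values of 0, 1.74 and 1594 CPM over day 16 cells and 3.26, 358 and 1914 CPM over fat pad cells. Its log2 ratio was -1.66, -0.84 in the first run and -6.34 in the second, where its median was 0 CPM. Epcam, an epithelial adhesion molecule, had a median of 22.2 CPM over day 16 bone cells and 1395 CPM over fat pad cells. Its sums differed by less than 2-fold (-0.73) while single day 16 cells reached 5101 CPM. Within the first run its median was 126 CPM and within the second 0.363 CPM.

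Desmosome and junction plaque genes followed the same course. Jup, plakoglobin, was lower in both runs (-1.33 and -2.0), with sums of 163 CPM in day 16 bone and 494 CPM in the fat pad. Dsc2, a desmosomal cadherin, was also lower in both, at 1.67 CPM in day 16 bone and 54.8 CPM in the fat pad. Dsp (-1.49), Dsg2 (-1.38) and the epithelial regulators Grhl2 (-1.15) and Esrp2 (-1.36) were 2-fold lower in all cells and in the second run, while in the first run they were -0.89, -0.76, -0.62 and -0.72. Ocln, occludin, was -1.35, and -0.97 in the second run without the deepest cell. St14, the protease matriptase, was -1.03, and -0.95 without the deepest cell. The epithelial transcription factor Elf3 was lower in both runs. Ovol1, a repressor of mesenchymal genes, was the 1 member higher in all cells at 64.7 CPM in day 16 bone and 10.7 CPM in the fat pad, but its log2 ratio was 2.93 in the first run and -1.29 in the second.

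Among the keratins, Krt8 and Krt18 chose the cells and are given only as a description: their sums were 4139.9 CPM in day 16 bone and 2689.6 CPM in the fat pad for Krt8 and 3354 CPM in day 16 bone and 2333 CPM in the fat pad for Krt18. Of 7 other keratins compared, 3 were lower and none higher (median -0.66). With Krt8 and Krt18 among them the list had a median of -0.54, 0.25 in the first run and -2.70 in the second. Krt17, a basal and wound keratin, was almost absent from day 16 cells, with a highest cell of 0.382 CPM against 1947 CPM in the fat pad, and 30.1% of fat pad cells held 10 CPM or more (28.6% unthinned). Its sum was 0.00475 CPM in day 16 bone and 109 CPM in the fat pad. Krt14, of basal mammary epithelium, summed to 105 CPM in day 16 bone and 421 CPM in the fat pad and was lower in both runs (-1.13 and -6.47). Krt19 was -1.07 in all cells, -0.85 without the deepest cell and -0.29 in the first run. Of 12 mammary lineage genes compared, 5 were lower and none higher (median -0.22). They were Krt14, the basal transcription factor Trp63 (-2.40), the mucin Muc1 (-2.62), lipocalin Lcn2 (-1.88) and lactoferrin Ltf (-1.23). Ltf came from few cells: its medians were 12.9 CPM over day 16 bone cells and 1.76 CPM over fat pad cells, and its median in day 16 host-like wells was 76.3 CPM, so by medians it was higher in day 16 cells. Sox9, a progenitor factor, was nearly 2-fold higher (0.96).

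The epithelial genes went together within a cell. Epcam, Cdh1, Cldn3, Krt7, Krt14 and Krt19 were counted as present at 50 CPM or more, a level set after seeing the data because host-like wells of the fat pad held a median of 23.3 CPM of Epcam. At least 4 of the 6 were present in 21 of 64 day 16 cells and 68 of 84 fat pad cells. At most 1 was present in 37 day 16 cells and 6 fat pad cells. The first run held 21 of 41 cells with at least 4, and the second 0 of 23, which allows a share of up to 13.0%. No host-like well of either group had more than 1. Across cells, Epcam and Cldn3 had a Spearman correlation of 0.75 over the 41 day 16 cells of the first run and 0.51 over the 84 fat pad cells, and Cldn3 had no count in the second run. Epcam and Vim had one of -0.70 in the first run, -0.21 over the 23 cells of the second and -0.63 over fat pad cells. Cells of a group share a sort and counting depth, and no p is given.

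**Figure D2:**
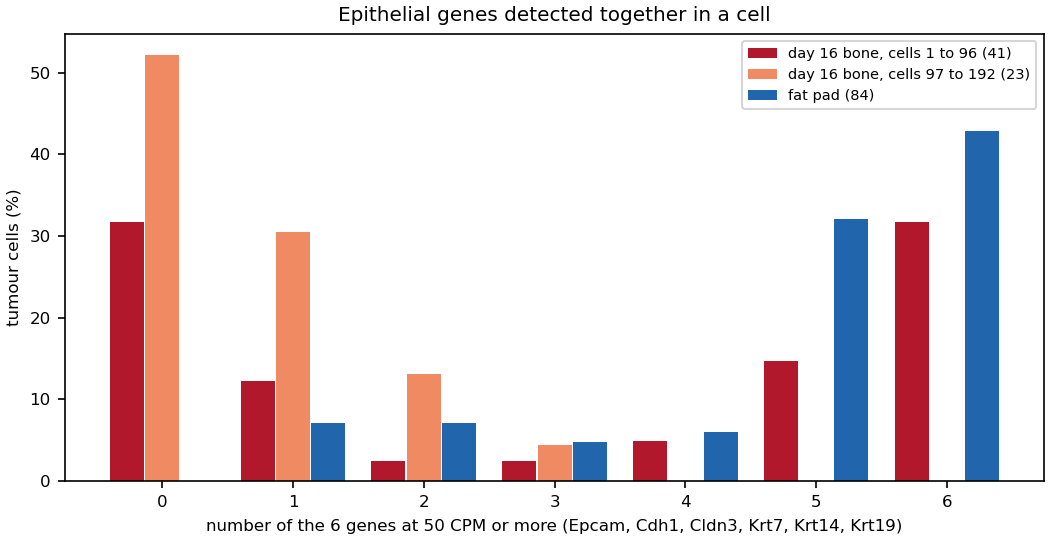
Share of tumour cells (%) by how many of 6 epithelial genes were at 50 CPM or more, for day 16 bone cells of the first run (41 cells), the second run (23 cells) and the fat pad (84 cells). Fat pad cells gather at 5 and 6 genes, the first run has cells at both ends, and the second run has none above 3.

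Genes of the type I interferon response differed in the other direction. Of 45 genes compared, 25 were lower in day 16 bone, none higher, and 1 had a positive log2 ratio. The median was -1.05, -1.14 in the first run and -1.02 in the second. Summed over the 25 genes called lower, and so chosen for it, cells had a lowest, median and highest of 77.1, 536.0 and 2951 CPM in day 16 bone and 271.4, 2097 and 11513 CPM in the fat pad. Of these, 4 of 64 day 16 cells lay above the fat pad median, and 81 of 84 fat pad cells above the day 16 median.

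To show the promoters behind this list, RefSeq promoters (GRCm38.p6, 250 bases before to 50 after the annotated start) were searched for the core of the interferon-stimulated response element, GAAANNGAAA, on either strand. It was found in 1131 of 32851 promoters, or 3.44%. Of the 25 genes called lower 18 had a promoter in the table and 14 held a match. Of the 20 not called 16 had one and 5 held a match. The match is a description of these letters and shows no binding. The 3 promoters below belong to genes far lower in day 16 bone, and capitals mark the matches, which read as TTTCNNTTTC where they lie on the other strand. They are Cxcl10 (chr5:92348840-92349139, minus strand), Ifit3 (chr19:34583279-34583578, plus strand) and Rsad2 (chr12:26456403-26456702, minus strand).
Cxcl10: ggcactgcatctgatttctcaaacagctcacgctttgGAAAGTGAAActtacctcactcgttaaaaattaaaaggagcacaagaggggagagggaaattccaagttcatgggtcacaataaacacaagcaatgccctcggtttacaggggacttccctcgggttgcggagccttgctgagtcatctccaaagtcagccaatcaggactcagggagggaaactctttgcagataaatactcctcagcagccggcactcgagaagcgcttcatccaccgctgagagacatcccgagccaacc
Ifit3: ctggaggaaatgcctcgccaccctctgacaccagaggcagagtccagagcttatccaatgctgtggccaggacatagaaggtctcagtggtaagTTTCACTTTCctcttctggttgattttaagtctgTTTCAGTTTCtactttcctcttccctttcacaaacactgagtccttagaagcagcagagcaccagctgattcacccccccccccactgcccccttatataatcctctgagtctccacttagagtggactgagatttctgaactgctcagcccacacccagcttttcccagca
Rsad2: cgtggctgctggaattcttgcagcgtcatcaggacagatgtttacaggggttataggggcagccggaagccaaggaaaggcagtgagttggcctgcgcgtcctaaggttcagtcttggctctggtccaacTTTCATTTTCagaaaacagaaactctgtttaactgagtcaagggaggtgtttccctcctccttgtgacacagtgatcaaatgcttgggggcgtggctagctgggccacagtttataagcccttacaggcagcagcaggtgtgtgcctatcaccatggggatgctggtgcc
The first base of the match lies 213 bases before the start in Cxcl10, 156 and 122 bases before it in Ifit3 and 120 bases before it in Rsad2.

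The genes with these promoters were expressed in a minority of cells. Cxcl10, a chemokine for T cells, had values of 0, 1.32 and 776 CPM over day 16 cells and 1.21, 4.07 and 2829 CPM over fat pad cells, with sums of 17.6 CPM in day 16 bone and 184 CPM in the fat pad (-3.06). Rsad2, the antiviral enzyme viperin, summed to 1.82 CPM in day 16 bone and 18.7 CPM in the fat pad. Ifit3 and Ifit3b, which are near-identical copies that may share reads, summed to 1.63 CPM in day 16 bone and 25.0 CPM in the fat pad for Ifit3 and 1.44 CPM in day 16 bone and 17.3 CPM in the fat pad for Ifit3b. Other members were lower across most cells. Bst2, tetherin, a membrane restriction factor, had values of 0.724, 81.3 and 329 CPM over day 16 cells and 62.5, 290.3 and 828 CPM over fat pad cells (-1.70), and its lowest fat pad cell lay near the day 16 median. Irf7, the transcription factor that amplifies interferon production, had medians of 3.37 CPM over day 16 bone cells and 133 CPM over fat pad cells (-1.99). Ifi44 had medians of 2.05 CPM over day 16 bone cells and 124 CPM over fat pad cells (-1.99, and -3.15 without the deepest cell). Oasl1 (-2.07), Oas3 (-1.78), Oas2 (-1.63), Zbp1 (-1.75), Mx2 (-1.37), Isg15 (-1.30), Irgm1 (-1.30), Parp14 (-1.24) and Gbp3 (-1.17) were lower in both runs. Ifit1, Igtp, Rtp4 and Stat2 were 2-fold lower in the first run and not in the second (-0.62, -0.90, -0.30 and -0.59). Cmpk2 and Trim30a were so in the second and not in the first (-0.66 and -0.73), and Ddx58 was -0.96 without the deepest cell. Irf1, a target of both interferon types, differed little (-0.08).

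Cultured cells held a high level of interferon genes, 283 CPM of Usp18 and 448 CPM of Ifi44. Against culture the list had a median log2 ratio of -1.37 in day 16 bone and -0.59 in the fat pad. The summed list had a median per cell of 7743 CPM in culture, 2047 CPM at day 4, 5442 CPM at day 10, 3579.7 CPM at day 16 and 7039 CPM in the fat pad, so the day 16 level lay between those of day 4 and day 10.

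MHC class II genes were lower by less. Of 9 MHC class II genes compared, 2 were lower and all but 1 had a negative log2 ratio (median -0.80, -0.60 and -0.99 in the runs). Ciita, the master activator of the class II genes, summed to 8.87 CPM in day 16 bone and 40.1 CPM in the fat pad (-1.70), and H2-Eb1 to 628 CPM in day 16 bone and 1285 CPM in the fat pad (-1.03, and -0.93 without the deepest cell). H2-Ab1 had values of 15.2, 446 and 3557 CPM over day 16 cells and 56.6, 991 and 3285 CPM over fat pad cells, which overlapped over most of their range. Both sites held far more than cultured cells: the class II sum had a median of 2837 CPM per cell at day 16, 6235 CPM in the fat pad and 0.266 CPM in culture. Host-like wells of the fat pad, which carry class II genes of their own, had a median sum of 9976 CPM. Of 22 class I genes 1 was lower, a share near the 4.70% of all genes, the immunoproteasome subunit Psmb9 at 126 CPM in day 16 bone and 296 CPM in the fat pad (-1.20, -0.79 in the first run), and the median was -0.29. The light chain B2m was -0.73 and the heavy chain H2-D1 0.30, neither 2-fold apart. Of 13 checkpoint and phagocytosis ligands 3 were lower: Cd274, which encodes PD-L1 (-1.18, -0.74 in the first run), Arg1 (-1.65) and Ido1 (-1.06, -0.96 without the deepest cell). Arg1 is a macrophage gene with a median of 13731 CPM in host-like wells of the fat pad.

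Most chemokines compared were lower as well. All 6 CXC chemokines compared were lower (median -1.93). Cxcl1, which draws neutrophils, at chr5:90891241-90893115, had values of 0.362, 58.8 and 2535 CPM over day 16 cells and 21.9, 784 and 13670.4 CPM over fat pad cells. Its sums were 393 CPM in day 16 bone (390.7 to 396.1) and 2123 CPM in the fat pad (2117 to 2129), and the log2 ratio was -3.41 in the first run and -1.79 in the second. Cxcl2 (-2.75) and Cxcl16 (-1.32) were lower in both runs. Cxcl5 (-1.19) was -0.75 in the first and Cxcl9 (-1.45) -0.93 in the second and 0.46 by the medians over cells. By those medians Cxcl2 was -0.30 and Cxcl5 -0.16. Cxcl2 was at 10 CPM or more in 22.9% of fat pad cells (19.0% unthinned). Host-like wells of the fat pad had medians of 1075 CPM of Cxcl2 and 521 CPM of Cxcl16. Of 4 genes of the CC list, which also holds the CX3C chemokine Cx3cl1, 3 were lower (median -1.94): the monocyte attractants Ccl2 at 2.53 CPM in day 16 bone and 164 CPM in the fat pad and Ccl7 at 1.26 CPM in day 16 bone and 36.7 CPM in the fat pad, and the chemokine Ccl25 (-1.14, -0.86 in the first run). Cx3cl1 had the highest sums of the list, 608 CPM in day 16 bone and 472 CPM in the fat pad, and was not lower (0.36). For Ccl7, 1 fat pad cell at 2923 CPM held 78.9% of the fat pad counts, medians were 1.15 CPM over day 16 bone cells and 1.40 CPM over fat pad cells, and without that cell the fat pad sum was 7.81 CPM, below the 10 CPM minimum. Ccl2 came from a minority of fat pad cells, 31.3% at 10 CPM or more (29.8% unthinned), with a highest cell of 4579 CPM against 69.8 CPM at day 16, and host-like wells of the fat pad had a median of 42.8 CPM.

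The broader NF-kB list was divided. Of 27 compared, 6 were higher and 7 lower (median 0.09). Higher were Icam1, an adhesion molecule for leukocytes, at 98.1 CPM in day 16 bone and 10.1 CPM in the fat pad (2.77), Ptgs2, the cyclooxygenase that makes prostaglandins (1.96), the alarmin Il33 (1.73), the macrophage growth factors Il34 (1.55) and Csf1 (1.16), and Nfkb1 (1.16), all in both runs. Lower in both were Il1a, at 10.0 CPM in day 16 bone and 229.8 CPM in the fat pad (-3.97), the nitric oxide synthase Nos2, at 0.788 CPM in day 16 bone and 69.9 CPM in the fat pad (-3.69), and Tnf, at 2.23 CPM in day 16 bone and 44.0 CPM in the fat pad (-2.76, though 0.23 by the medians over cells). Il1a was at 10 CPM or more in 9.68% of day 16 cells and 47.0% of fat pad cells (6.25% and 45.2% unthinned), and host-like wells of the fat pad had a median of 143 CPM. Tslp, an epithelial cytokine (-1.50), Il23a (-1.16) and Cd40 (-1.07) were under 2-fold in the first run (-0.94, -0.38 and -0.97), and Il23a and Cd40 also without the deepest cell (-0.96 and -0.95). Csf2 was -1.39 at a low level.

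**Figure D3:**
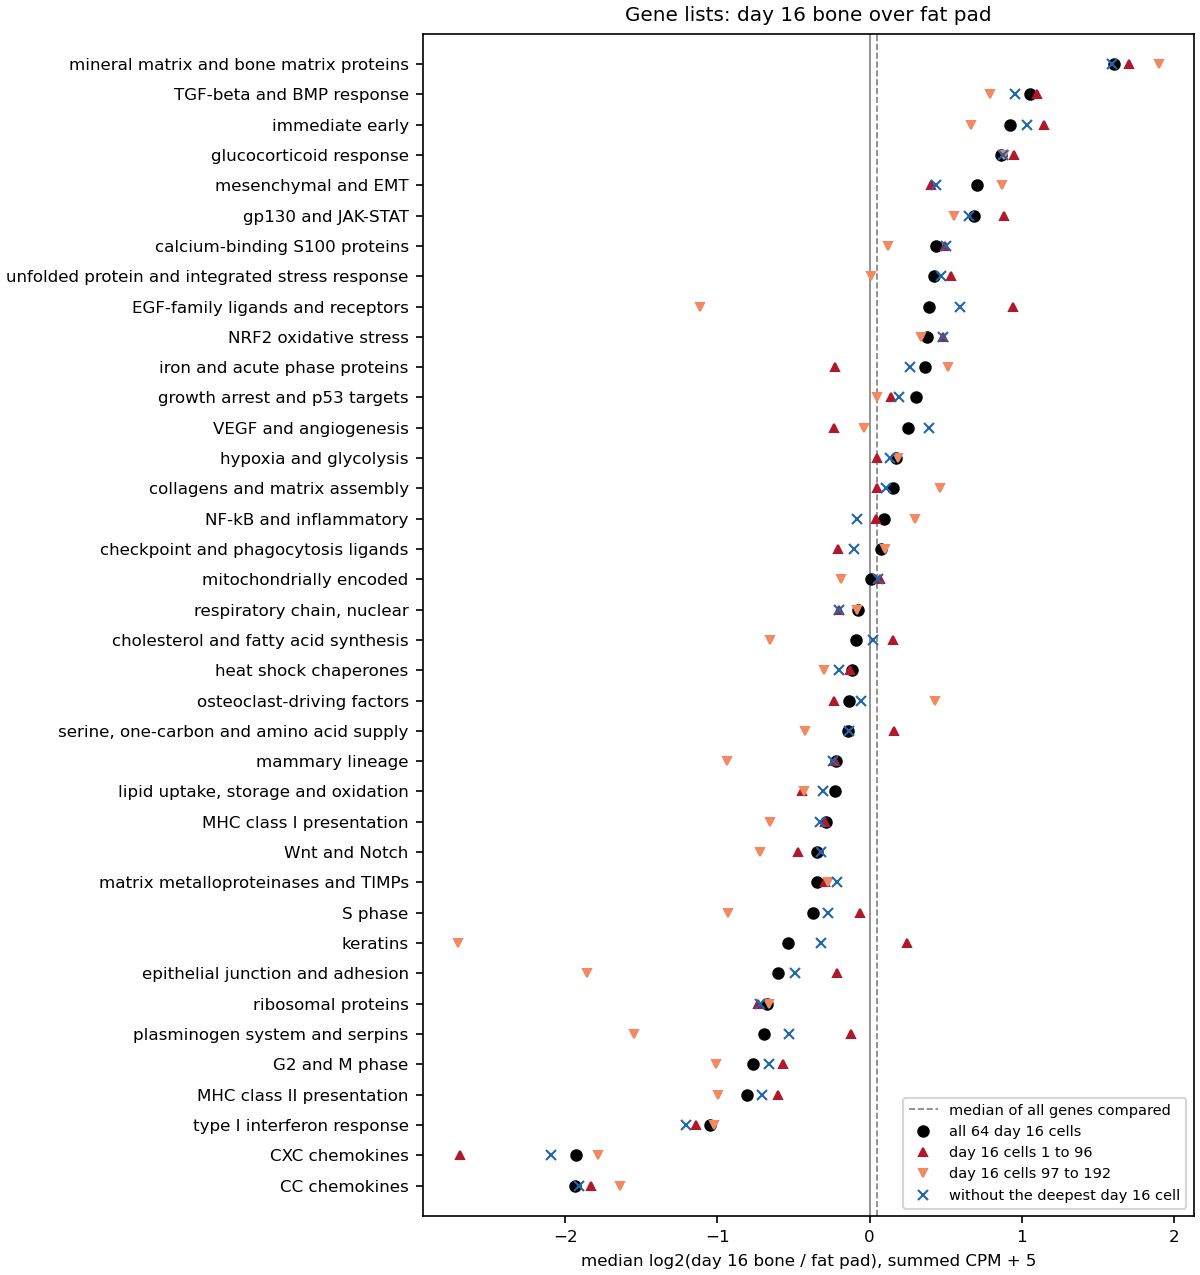
Median log2 ratio of day 16 bone over fat pad for each of 38 gene lists, from all 64 day 16 cells, from each run of cell numbers and without the deepest cell, with the median of all genes as a dashed line. Mineral matrix, transforming growth factor, immediate early and glucocorticoid lists lie right of it in every setting shown, and interferon, chemokine, class II and ribosomal lists left of it, while keratins and epithelial junction genes spread widely between the runs.

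Factors that drive osteoclasts were split. Of 11 compared, 5 were higher and 3 lower (median -0.13). Pthlh encodes parathyroid hormone-related protein, which makes osteoblasts display the osteoclast factor RANKL. It had values of 0, 78.9 and 968 CPM over day 16 cells and 0, 1.2 and 387 CPM over fat pad cells, with sums of 264 CPM in day 16 bone and 51.0 CPM in the fat pad. Its log2 ratio was 2.27, 1.86 in the first run and 2.59 in the second. Il11, an osteoclast-supporting cytokine, was at 40.0 CPM in day 16 bone and 2.68 CPM in the fat pad (2.55), from 29.0% of day 16 cells and 6.02% of fat pad cells at 10 CPM or more (29.7% and 7.14% unthinned). Ptgs2 had medians of 457 CPM over day 16 bone cells and 124 CPM over fat pad cells, and Csf1, the growth factor of osteoclast precursors, had medians of 115 CPM over day 16 bone cells and 33.5 CPM over fat pad cells. Vegfa was 1.2 in all cells but 0.46 without the deepest cell. The 3 lower were Ccl2, Tnf and Csf2, and Jag1, Inhba and Lif were neither (-0.13, -0.38 and -0.46). Receptors and feedback genes of the gp130 pathway, through which Il11 signals, were higher in part: of 16 compared, 6 were higher and 1 lower (median 0.69). They included the receptors Lifr (1.76), Il6ra (1.28) and Il11ra1 (1.04, 0.88 in the first run), with Bcl6 lower.

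Growth factor, protease and vessel genes gave shorter lists. Of 6 EGF-family genes 2 were higher, the ligand Hbegf at 1104 CPM in day 16 bone and 413 CPM in the fat pad (1.41, 0.84 in the second run) and the receptor inhibitor Errfi1 at 1362 CPM in day 16 bone and 386 CPM in the fat pad (1.80, 0.84 in the second run without the deepest cell). Of 11 metalloproteinase and inhibitor genes 3 were higher and 3 lower. The matrix protease Adamts1 was higher in both runs at 385 CPM in day 16 bone and 85.5 CPM in the fat pad (2.11), and the inhibitor Timp2 was 1.17 (0.98 in the first run). Mmp8 is a neutrophil gene and was 0.17 after the host profile was subtracted. Mmp13 (-1.57, and -0.70 without the 1 fat pad cell with the most counts) and Mmp10 (-1.72) were lower in both runs and Mmp3 (-1.01) was -0.29 in the first and -0.84 without the deepest cell. These sums came from few cells. Mmp13 was at 10 CPM or more in 25.8% of day 16 and 21.7% of fat pad cells (23.4% and 21.4% unthinned). For Mmp10 these shares were 11.3% and 13.3% (9.38% and 13.1% unthinned). Mmp9 was -0.92 by sums and 0.85 by the medians over cells. Of 8 genes of the plasminogen system 2 were higher and 3 lower. Plaur, the urokinase receptor, was higher at 433 CPM in day 16 bone and 127 CPM in the fat pad (1.73), and the lower genes were Plat (-2.10, and -0.46 by the medians over cells), Serpinb5 (-1.64) and St14. Of 13 vessel genes, 3 were higher and 2 lower. Nrp1, a coreceptor of semaphorins and VEGF, was 2.17 in all cells but 3.09 in the second run and -0.003 in the first. Flt1 was 1.21 (0.70 in the second run), and Angptl4 (-2.32, and -0.15 by the medians over cells) and Pdgfb (-1.24, -0.77 in the first run) were lower. Of 13 Wnt and Notch genes 5 were lower and none higher: Notch3 (-2.81), Wnt10a (-2.70) and Sfrp1 (-2.07) in both runs, Wnt7a (-1.25, -0.71 in the first) and Notch1 (-1.08, -0.90 without the deepest cell).

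Division genes were low at both sites. Of 46 genes of the G2 and M phases compared, 14 were lower in day 16 bone and none higher (median -0.76). These sums come from the few cells in division: Ube2c, which feeds cyclins to the proteasome, summed to 33.1 CPM in day 16 bone and 114 CPM in the fat pad, with medians of 1.03 CPM over day 16 bone cells and 1.14 CPM over fat pad cells and highest cells of 915 CPM at day 16 and 2223 CPM in the fat pad. Kif11 (-1.48) and Birc5 (-1.33) were lower in both runs, as sums. Hmmr (-1.43) was too, with -0.98 in the second run without the deepest cell, and Cdc20 (-1.31) was -0.84 in the first run. Mki67 was not apart (0.23). Per cell the list summed to a median of 1048 CPM at day 16 and 793 CPM in the fat pad, so by the typical cell the direction was the opposite. In culture that median was 6454 CPM, at day 4 it was 7752 CPM and at day 10 3704 CPM. Of 33 S phase genes 1 was lower, a share below the 4.70% of all genes, and none higher (median -0.37). It was Tyms (-1.09, -0.92 without the deepest cell). Of 20 growth arrest genes 4 were higher and 1 lower (median 0.31). Gadd45g and Gadd45b were higher in both runs. Cdkn1a, the cyclin-dependent kinase inhibitor p21, was 2.51 at 210.2 CPM in day 16 bone and 32.9 CPM in the fat pad, but 3.24 in the first run and -0.20 in the second, and Sesn2 (1.17) was -0.08 in the second. Trp53inp1 was lower (-1.58, and -0.01 by the medians over cells).

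**Figure D4:**
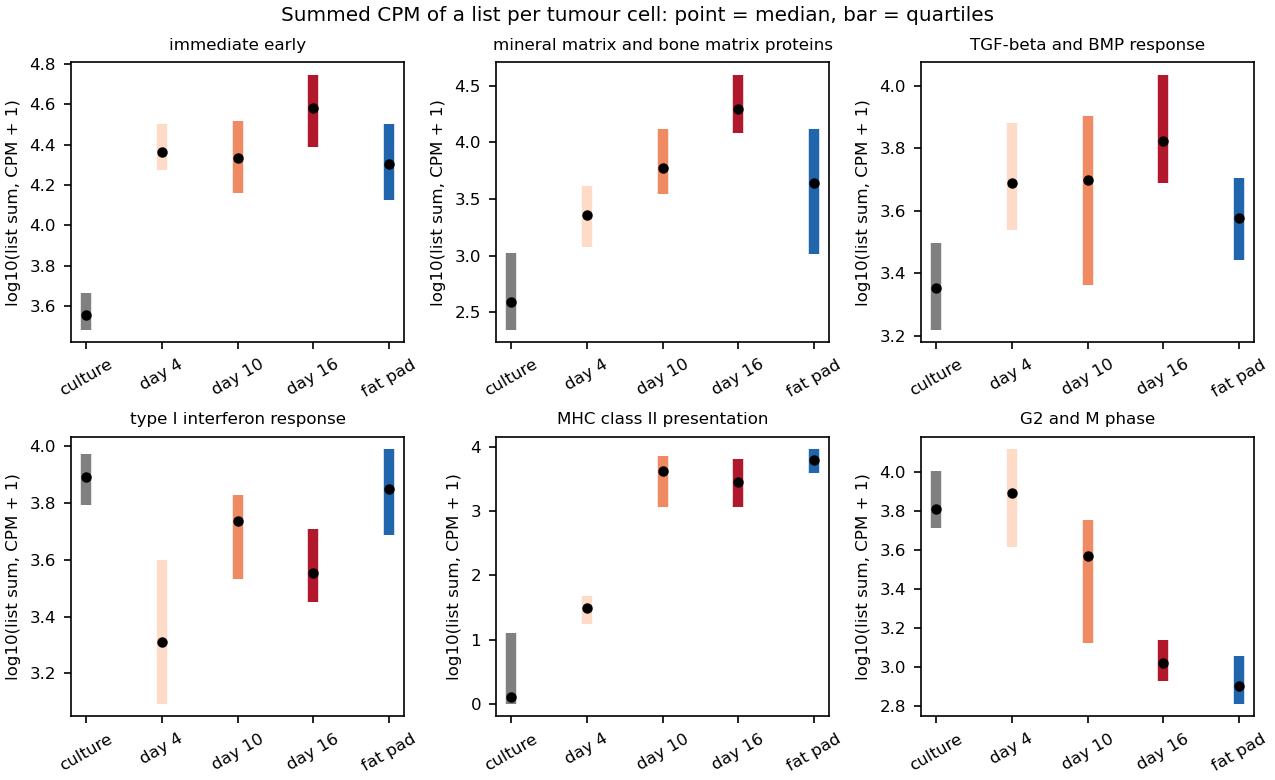
Summed CPM of 6 gene lists per tumour cell, as log10(CPM + 1), in cultured cells, bone at day 4, day 10 and day 16, and the fat pad, with the median as a point and the quartiles as a bar. Immediate early, mineral matrix and transforming growth factor lists are highest at day 16, interferon genes are lower at day 16 than in the fat pad and culture, class II genes are high from day 10, and division genes are low at day 16 and in the fat pad.

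Of the hormone and stress lists, glucocorticoid and NRF2 targets held more higher than lower genes and hypoxia and heat shock genes did not. Over all genes compared 6.90% were called higher. The counts called higher among hypoxia, unfolded protein and heat shock genes were near or below that share. Of 15 glucocorticoid targets 7 were higher and 2 lower (median 0.87): Cebpb at 340.5 CPM in day 16 bone and 85.6 CPM in the fat pad (1.93), Hsd11b1, which regenerates active glucocorticoid (1.89), Errfi1, Cebpd (1.32, and 0.51 without the 1 day 16 cell with the most counts), Klf9 (1.06, 0.51 in the first run), the receptor Nr3c1 (1.37, 0.95 in the first run) and Mt1 (1.03, 0.02 in the second). Per1 (-1.19, -0.98 in the second run without the deepest cell) and Lcn2 were lower. Of 23 NRF2 targets 6 were higher and none lower (median 0.38): heme oxygenase Hmox1 at 161 CPM in day 16 bone and 34.0 CPM in the fat pad (2.09), Srxn1 (1.17) and Gsta4 (1.19) in both runs, Gclm (1.30, 0.75 in the first), Gstm1 (1.26, 0.80 in the second) and Nqo1 (1.12, 0.56 in the second). By the medians over cells Hmox1 was 2.40 and Gclm 2.32. Srxn1 (0.44), Gstm1 (0.31), Gsta4 (0.14) and Nqo1 (0.11) were then short of 2-fold, so their sums came from a minority of cells. Hmox1 is also a macrophage gene, with medians of 88.5 CPM in day 16 and 1477 CPM in fat pad host-like wells. Of 40 hypoxia and glycolysis genes 2 were higher and 5 lower (median 0.17): the carbonic anhydrase Car9 at 461 CPM in day 16 bone and 149 CPM in the fat pad (1.6, 0.98 in the first run) and Vegfa against Angptl4, Adm (-1.41, -0.83 in the first run), Car12 (-1.37), Ankrd37 (-1.18, -0.90 in the first run) and Pdk1 (-1.08, -0.90 without the deepest cell). Unfolded protein genes had 2 of 24 higher, Ppp1r15a and Sesn2 (median 0.43). Heat shock genes had 1 of 19 higher, Hspa4l (1.04, 0.85 without the deepest cell), and 3 lower, of which Hspb1, a small heat shock protein, was at 12.1 CPM in day 16 bone and 169 CPM in the fat pad (-3.34). Its medians were 0.290 CPM over day 16 bone cells and 2.93 CPM over fat pad cells (-0.58). Hspe1 was -1.08 and Hspa1b -1.13, at -0.86 in the second run without the deepest cell.

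Matrix assembly and housekeeping lists moved less. Over all genes compared 6.90% were called higher and 4.70% lower. The counts called among ribosomal, respiratory chain and sterol genes were near or below those shares. Of 24 collagens and matrix enzymes 5 were higher and none lower (median 0.15): Col12a1 in both runs at 48.6 CPM in day 16 bone and 9.21 CPM in the fat pad (1.91), the lysyl hydroxylases Plod2 (1.51, 0.64 in the first run) and Plod1 (1.12, 0.48 in the second), and Col4a5 (1.25) and Col18a1 (1.09), which were 0.67 and 0.80 without the deepest cell, with Col4a5 at -0.05 in the first run. By the medians over cells Col12a1 was 0.27. Ribosomal protein genes were lower together by less than 2-fold (median -0.68, -0.73 and -0.66 in the runs). Of 56, 3 were called lower, Rps29 (-1.08), Rps23 (-1.07) and Rps19 (-1.0, -0.99 without the deepest cell), and 2 had a positive log2 ratio. The list summed to a median of 30968 CPM per day 16 cell and 45504 CPM per fat pad cell. Nuclear respiratory chain genes had 1 of 50 lower, Cox7c (-1.04, -0.97 without the deepest cell), and the 9 mitochondrially encoded genes none apart (medians -0.08 and 0.01). Lipid genes had 4 of 20 lower, Angptl4, Hilpda (-1.15), Plin2 (-1.02, -0.96 without the deepest cell) and Acsl5 (-1.01, -0.89 in the first run). Hilpda was -0.79 in the first run. Sterol and fatty acid synthesis had 1 of 32 higher, Stard4 (1.53, 0.42 without the deepest cell), and serine and amino acid supply none of 16 apart. S100 proteins had S100a8 and S100a9 higher and S100a14 lower of 10. Iron and acute phase genes had 2 of 11 higher and 4 lower: Hp, which was 0.00 after subtraction of the host profile, and Steap1 (1.19, 0.65 in the second run) against C3, Lcn2, Ltf and Steap3 (-1.16, -0.78 in the first run).

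Cultured 4T1 cells served as the baseline of both sites, and since the comparisons share them, their values are only set side by side. Against culture, 1688 of 9262 genes were at least 2-fold higher in day 16 bone (18.2%) and 1211 lower (13.1%). In the fat pad 1231 of 9178 were higher (13.4%) and 970 lower (10.6%). The immediate early list had a median log2 ratio over culture of 3.6 in day 16 bone and 2.15 in the fat pad. For the mineral matrix list these were 3.84 and 4.15, for the transforming growth factor beta list 2.08 and 1.08, and for the glucocorticoid list 2.39 and 1.21. By list median both sites were thus above culture, but not every member was. In the fat pad Id1 (-0.67) and Id2 (-0.45) lay below culture and Sparc was level with it (0.04). Class II genes were 4.87 and 5.74, and G2 and M phase genes -2.12 and -1.57. CXC chemokines were below culture at day 16 (-1.14) and above it in the fat pad (1.77), and epithelial junction genes were close to culture at day 16 (0.02) and above it in the fat pad (0.69). Cxcl1 gave 393 CPM at day 16, 2123 CPM in the fat pad and 259.8 CPM in culture, and Nr4a2 gave 952, 28.2 and 3.13 CPM. Tmprss6 was at 21.0 CPM at day 16, 263 CPM in the fat pad and 0.542 CPM in culture.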

How the data were processed

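Single-cell RNA-seq counts of 4T1 tumour cells from day 16 bone (64 cells) and from the day 22 fat pad (84 cells) were analysed, with cultured, day 4 and day 10 cells of the line as context. The deposited table holds unscaled counts, as whole numbers, for each gene symbol in each cell. Per the submitters' processing notes, the tools named are the aligner STAR 2.6.0c and the counter featureCounts 1.6.2, with Trim Galore 0.6.6, FastQC 0.11.7, Seurat 3.1.2, SAMtools 1.7 and R 3.6.2, and the build is mm10. The order of the steps and the annotation behind the deposited counts are not given in the sources used here. The table had 40840 rows. The 78 ERCC spike-in rows (0.670% of counts), the reporter rows (0.187%) and 4 duplicated date-like symbols (0.0149%) stayed out of library sizes, which left 40756 genes. The count totals of single cells are given in the report, and without molecular identifiers a read count is not a count of molecules.

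Group sums were turned into CPM after TMM scaling over the 5 groups of 4T1 cells (edgeR 4.0.16, which served for the scaling alone). No model was fitted, since each group is 1 sample. Gene positions are from the GENCODE M21 annotation of mm10. Python 3.11.15, numpy 2.4.6, pandas 2.3.3, scipy 1.17.1, matplotlib 3.10.9 and R 4.3.3 were used, and the summing and calling steps were checked on simulated data. Doublets were not called, and wells with transcripts of both kinds were left out.

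The cells and the gene lists were chosen with earlier results of these data known. Genes that could be named were the 14 furthest in each direction with at least 20 CPM in the higher group, a median of at least 5 CPM over its cells and medians 2-fold apart, the members of each list called in either direction or furthest from 0, all marker and keratin genes, and all genes of the mineral matrix, osteoclast and metalloproteinase lists. Not all of them are named, so a gene left out is not thereby absent. Gene symbols of the Gm and Rik kind are counted and not named, except the ribosomal RNA rows. Fos, Egr1, Epcam, B2m, the gene pairs and the 50 CPM level for co-detection were singled out after their values were seen. Alternatives changed the scaling (DESeq2 1.42.0 size factors among them), the CPM minimum, the CPM added, the weight of cells, the depth, the purity of wells and the cells used.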

Additional observations from a re-analysis of the deposited data

How the results depend on the processing

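The counts of 631 higher and 430 lower genes were recomputed under 20 alternatives. Those chosen after seeing the data were leaving out the deepest day 16 cell, subtracting the host profile and the second run without that cell. The second run alone gave 1107 higher and 1187 lower genes, and 996 lower without the deepest cell. Adding 1 CPM gave 660 lower genes and adding 10 CPM gave 260. The other counts were within 1.5 times. Of 207 genes followed, 188 kept the sign of their log2 ratio in all 20 alternatives, and of 38 list medians 22 did. Of 15 list medians of at least 0.5 either way 11 kept their sign, and the others became -0.013 for mineral matrix genes with no minimum CPM, 0.25 for keratins in the first run, and by medians over cells 0.29 for G2 and M phase and 1.21 for plasminogen genes. Among genes, subtracting the host profile gave -0.26 for S100a8 and -0.15 for S100a9. Medians over cells gave 0.23 for Tnf, -0.011 for Col4a5, 1.41 for Ltf, 0.46 for Cxcl9, 0.10 for Birc5, 0.045 for Tpx2, 0.0499 for Aurka, 0.0535 for Cdc20 and 0.0051 for Cenpe. The first run gave -0.048 for Col4a5 and -0.0030 for Nrp1. The second run gave -1.29 for Ovol1, -0.20 for Cdkn1a and -0.078 for Sesn2, and without its deepest cell -1.10 for Ovol1 and -0.997 for Stard4. Ltf was 0.69 without each gene's highest 5% of cells and 2.06 with mixed wells kept. Of 10 called genes for which 1 cell held over 40% of the counts of the higher group, leaving out that cell, also chosen after seeing the data, changed no sign and left Ccl7 at -1.03, Cebpd at 0.51 and Mmp13 at -0.70. The cause of these changes was not tested. No paired analysis was possible because the cell numbers name single cells, each group is 1 sample and no test was made. Depth limits genes under 10 CPM, which were not compared.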
